A study of Mus musculus with 12 samples.

Results

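The capillary endothelial cells of the mouse lung were followed through 10 genes that distinguish their types, in whole-lung RNA sequencing after bleomycin injury. The genes were chosen by name, as ones known from lung biology, and with earlier results of these data known. All 10 were found among the 55491 entries of the deposited tables. The aerocyte genes are Car4, Ednrb, Apln, Fibin and Tbx2. Genes of the general capillary cell and the sprouting, tip-like cell are Gpihbp1, Aplnr, Plvap, Ptprb and Esm1. All mice were male C57BL/6J, wild-type and 10 weeks old, and every group, the reference group included, had received oropharyngeal bleomycin at 0.0125 U per mouse (about 0.5 U per kg). There were 3 groups of 4 mice, with 1 library per mouse and no uninjured lungs. The day 14 group was taken at day 14 with no treatment beyond bleomycin. The vehicle group was taken at day 21 after intravenous saline, and the nanoparticle group at day 21 after 5 daily intravenous (retro-orbital) doses of 2 mg, from day 14 to day 18, of particles of poly(lactide-co-glycolide) coated with poly(ethylene-alt-maleic anhydride). The comparisons therefore ask how these genes moved during the week after day 14, with and without particles.

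The alveolar capillary bed is built of intermingled endothelial cell types. Aerocytes are large, thin cells that lie against the gas-exchange surface, and general capillary cells regulate vessel tone and can act as progenitors after injury. The types signal to each other: aerocytes express apelin, the product of Apln, and general capillary cells express its receptor, the product of Aplnr. Apelin and Esm1 are also known from endothelial tip cells, where vascular endothelial growth factor induces them. None of the 10 genes is exclusive to its cell type in a whole organ. Tbx2 is also a transcription factor of lung mesenchyme, for example, and Apln and Ednrb are expressed outside the endothelium.

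All 10 genes were well above the low-count filter, and the lowest single count was 200, for Esm1. Total counts per library were 25706260 to 42714693 at day 14, 28001006 to 36208498 with vehicle and 24138582 to 28910459 with nanoparticles. General endothelial RNA was present in every library: Pecam1, an adhesion molecule of all endothelium, had group means of 325, 353 and 366 TPM (a transcript abundance scaled for length and library size) at day 14, with vehicle and with nanoparticles. The summed CPM (counts scaled for library size only) of 18 genes shared by all endothelial types spanned 4621 to 5184, 4620 to 5816 and 5342 to 6052 in the same order. In whole-lung RNA a lower level can come from fewer cells of a type or from less RNA of that gene per cell, and these cannot be told apart.

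On the per-length TPM scale, Plvap and Gpihbp1 were the most abundant of the 10, with means of 246 TPM each over the 12 libraries. Plvap was the higher of these in 6 of 12 libraries, so their order was not settled. Ptprb (135 TPM) and Car4 (134 TPM) followed, again without a settled order, since Ptprb was the higher in 7 of 12. Tbx2, at 111 TPM, lay below Car4 in 11 of 12 libraries. A lower tier held Aplnr (36.2 TPM), Ednrb (34.2 TPM) and Fibin (31.0 TPM). Their order was not settled either: Aplnr exceeded Ednrb in 4 of 12 libraries, and Ednrb exceeded Fibin in 7 of 12. Apln (24.0 TPM) was below Fibin in 10 of 12, and Esm1 (10.9 TPM), the least abundant, was below Apln in 11 of 12. The ligand Apln and its receptor Aplnr thus lay in the lower tier, and the markers Car4 and Gpihbp1 in the upper one.

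**Figure D1:**
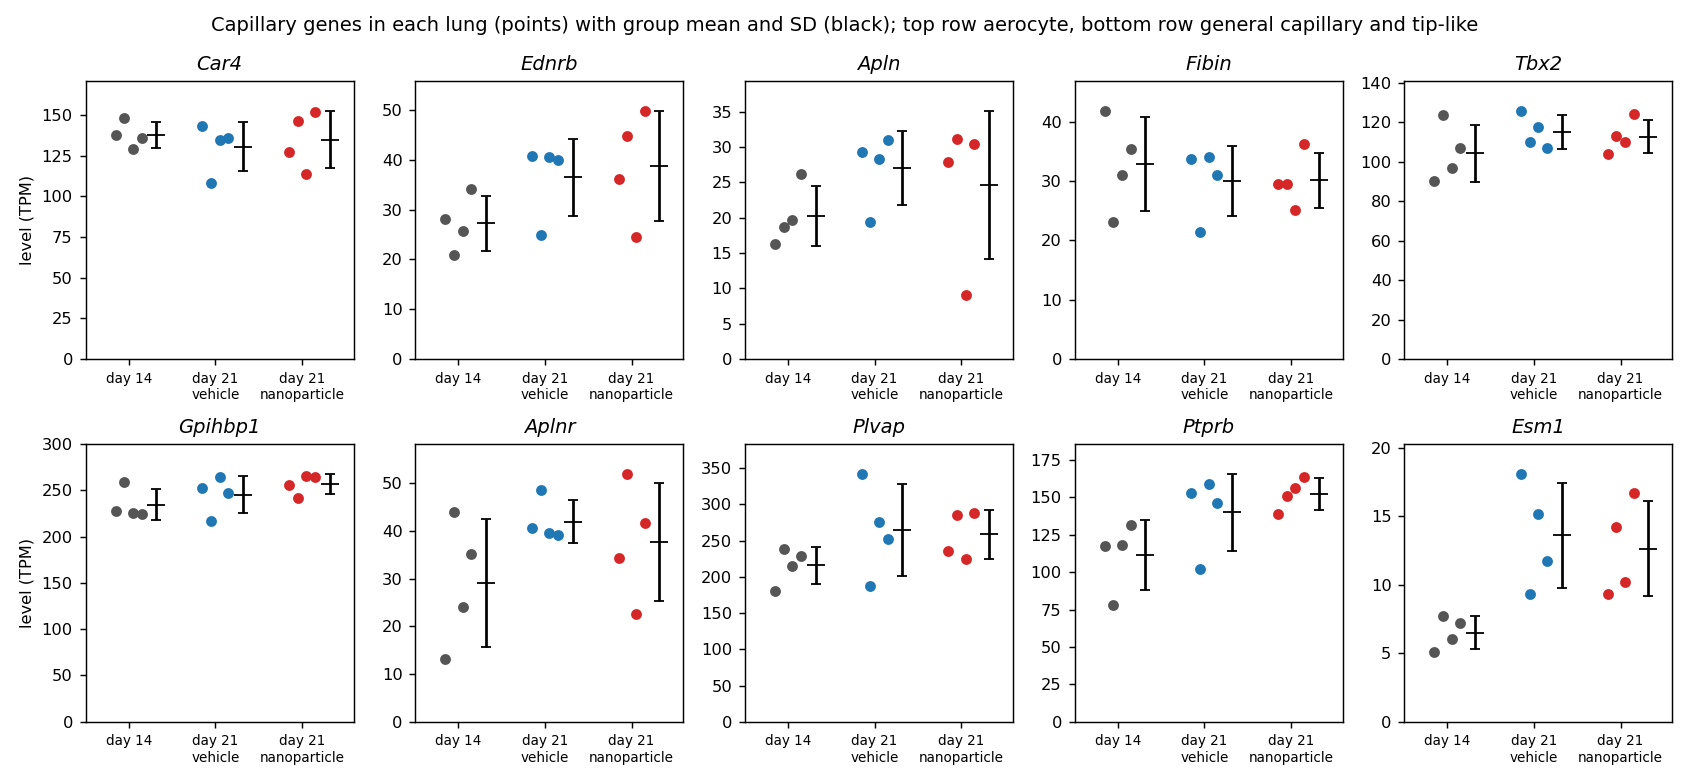
Level of each of the 10 genes in every library, in TPM on linear axes that start at 0, by group (day 14, vehicle and nanoparticle at day 21, 4 mice each), with the group mean and SD in black. Esm1 is the gene whose 4 day 14 libraries lie below all 8 libraries of day 21, and the other genes overlap between day 14 and at least 1 of the day 21 groups.

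Esm1 encodes endocan, a secreted proteoglycan of activated and sprouting endothelium. It was the 1 gene of the 10 that was called between day 14 and day 21 in edgeR's test, and it rose in both day 21 groups. At day 14 its level was 5.10, 7.69, 6.02 and 7.24 TPM in mice 1 to 4. In the vehicle group it was 18.1, 9.33, 15.2 and 11.7 TPM, and in the nanoparticle group 9.35, 14.2, 10.2 and 16.7 TPM. Every day 21 library exceeded every day 14 library, while the day 21 groups overlapped each other fully. In edgeR's quasi-likelihood test, fitted over all 17909 genes that passed the filter, Esm1 rose by 1.06 on the log2 scale in the vehicle group (SE 0.231, 95% interval 0.55 to 1.56, adjusted p = 0.0159), which is 2.08-fold. In the nanoparticle group it rose by 0.95 on the log2 scale (SE 0.233, 95% interval 0.45 to 1.46, adjusted p = 0.0193), or 1.94-fold. Both comparisons use the same 4 day 14 libraries.

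The Esm1 call depended on single libraries, while its direction did not. Without day 14 mouse 1 or day 14 mouse 3 the adjusted p in the vehicle comparison was 0.0509 or 0.0561, and in the nanoparticle comparison 0.0615 or 0.0602. The nanoparticle comparison also missed the threshold without nanoparticle mouse 2 (adjusted p = 0.0540) or mouse 4 (adjusted p = 0.0552). Over the left-out libraries the log2 difference stayed between 0.91 and 1.21 for vehicle and between 0.78 and 1.09 for nanoparticles. Esm1 overlaps Gzmk, a granzyme gene on the opposite strand, but Gzmk had 36 counts in all 12 libraries against 4796 for Esm1.

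Across all genes tested, 10.3% were called in the vehicle comparison (1845 genes, 679 of them higher, 3.79%) and 14.7% in the nanoparticle comparison (2636 genes, 1103 of them higher, 6.16%). Against this background 1 of 10 capillary genes was called higher in each, and 0 of 10 lower, where 6.51% and 8.56% of all genes were. Under an unadjusted p of 0.05 in the same edgeR test there was 1 of 10 with vehicle (Esm1) and 3 of 10 with nanoparticles (Esm1, Ptprb and Ednrb), beside 27.3% and 30.8% of all genes. Groups did not overlap for 17.9% of all genes in the vehicle comparison and 19.0% in the nanoparticle comparison. Among the 10 this held for Esm1 in the vehicle comparison and for Esm1 and Ptprb in the nanoparticle comparison. The median log2 difference of the 5 aerocyte genes was 0.13 for vehicle and 0.11 for nanoparticles, and that of the 5 general capillary and tip-like genes was 0.32 and 0.38, beside 0.0031 and 0.0062 over all genes tested. The 18 genes shared by all endothelial types had medians of 0.11 and 0.16, so the aerocyte medians were near those of endothelium in general.

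**Figure D2:**
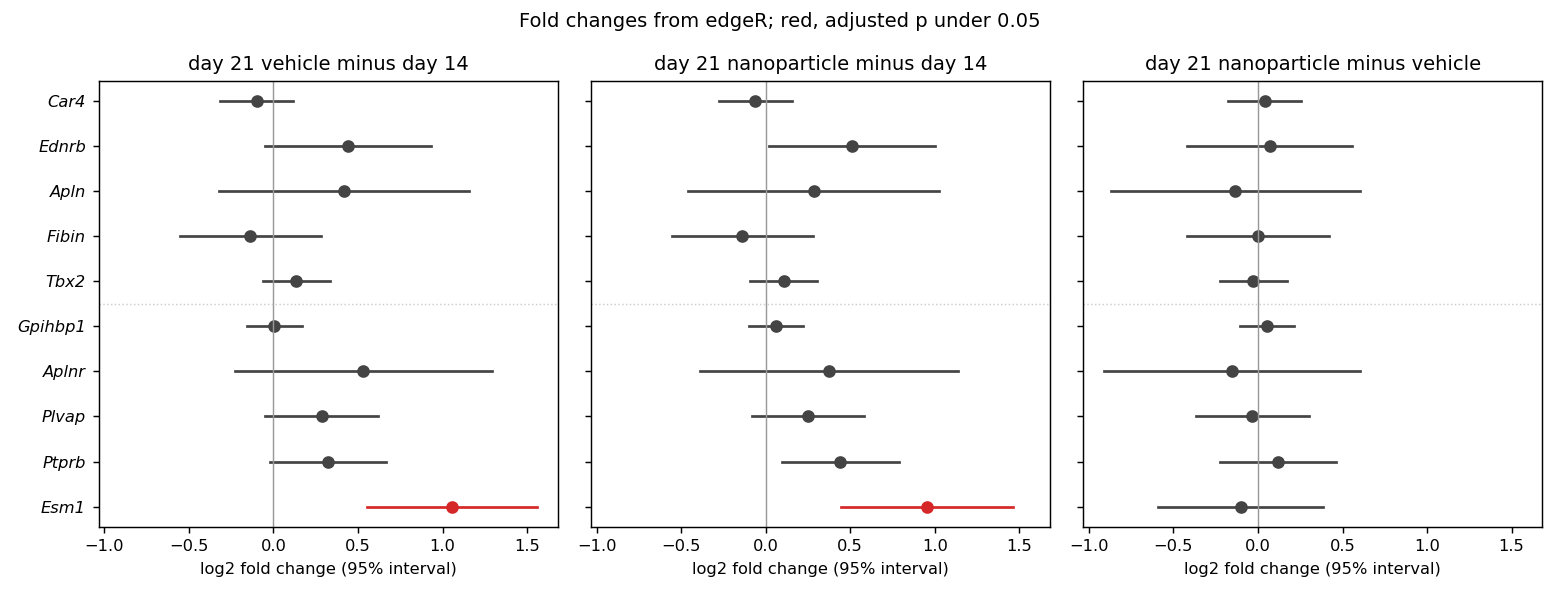
Log2 difference of each of the 10 genes in the 3 comparisons, with 95% intervals from edgeR's quasi-likelihood fit. The intervals of Esm1 lie above 0 in both comparisons with day 14, and all intervals between nanoparticle and vehicle groups include 0.

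The sequences just upstream of the start are shown for the tip-cell genes Esm1, which was called, and Apln, which was not. The difference between them was not tested. They are the 250 bases before the RefSeq start on GRCm38.p6, read on the gene's strand, at chr13:113209409-113209658 (plus strand) for Esm1 and chrX:48034854-48035103 (minus strand) for Apln. Capitals mark GGAAG or its reverse complement CTTCC, a longer form of GGAA, the core of sites for ETS factors. That family includes general endothelial regulators. Copies of GGAA or TTCC with other neighbouring letters were neither marked nor counted, and the Esm1 stretch holds such copies.
Esm1: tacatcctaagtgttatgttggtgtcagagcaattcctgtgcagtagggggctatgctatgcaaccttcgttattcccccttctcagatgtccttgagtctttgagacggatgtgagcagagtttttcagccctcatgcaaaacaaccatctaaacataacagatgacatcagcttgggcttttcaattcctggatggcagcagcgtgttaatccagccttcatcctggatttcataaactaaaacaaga
Apln: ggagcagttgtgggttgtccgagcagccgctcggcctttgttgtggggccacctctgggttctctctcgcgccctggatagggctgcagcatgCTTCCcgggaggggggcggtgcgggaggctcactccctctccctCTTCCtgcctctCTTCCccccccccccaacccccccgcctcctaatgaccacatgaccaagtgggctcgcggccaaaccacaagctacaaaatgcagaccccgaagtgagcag
The Apln stretch held GGAAG or CTTCC 3 times and the Esm1 stretch 0 times, which does not count the shorter core. One or more copies of GGAAG or CTTCC were present in 64.1% of 32851 promoters of the same length, so their presence is common. The sequences also differed in base composition, with 44.0% GC for Esm1 and 65.2% for Apln, against a median of 52.4%. The letters ACGTG or CACGT, a form of the core of hypoxia response elements, were in neither stretch and in 16.6% of promoters. The other form of that core, GCGTG or its reverse complement CACGC, was neither marked nor counted, and the Esm1 stretch holds GCGTG. Upstream sequences were held for 5 of the 10 genes (Car4, Ednrb, Apln, Fibin and Esm1), and GGAAG or CTTCC was found in 4 of these 5. By the gene coordinates given below, the Ednrb sequence lies inside the gene and the Fibin sequence partly so. The count is therefore not of untranscribed sequence alone.

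Gpihbp1, at chromosome 15, 75596628 to 75599481 (GRCm38), encodes the anchored protein that carries lipoprotein lipase to the capillary lumen. It was among the steadiest of the genes. Its levels were 228, 259, 225 and 225 TPM at day 14, 252, 217, 265 and 248 TPM with vehicle and 256, 242, 266 and 265 TPM with nanoparticles. The groups overlapped, and day 14 mouse 2 stood above the other 3 day 14 mice. The log2 difference from day 14 was 0.01 with vehicle (95% interval -0.16 to 0.17, adjusted p = 0.972) and 0.06 with nanoparticles (95% interval -0.10 to 0.22, adjusted p = 0.636). These narrow intervals leave out changes of the size seen for Esm1.

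Plvap, at chromosome 8, 71497765 to 71511752, encodes the protein of the diaphragms that close endothelial fenestrae and caveolae. Its levels were 181, 238, 215 and 229 TPM at day 14, 343, 188, 275 and 253 TPM with vehicle and 236, 286, 224 and 289 TPM with nanoparticles. Vehicle mouse 2 lay below 3 of the 4 day 14 mice, whereas the other 3 vehicle mice lay above all of them. The log2 difference was 0.28 with vehicle (95% interval -0.05 to 0.62, adjusted p = 0.254) and 0.25 with nanoparticles (95% interval -0.08 to 0.58, adjusted p = 0.295). Without vehicle mouse 2 the vehicle difference was 0.43 and passed the threshold (adjusted p = 0.0479). Plvap overlaps Gtpbp3 on the opposite strand, and with the strand setting not given in the sources used here their reads cannot be told apart. Gtpbp3 had 6510 counts in all, 6.39% of those of Plvap.

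Ptprb, at chromosome 10, 116275523 to 116389535, encodes the receptor phosphatase VE-PTP, which removes phosphate from the angiopoietin receptor Tie2 and from VE-cadherin. Its levels were 118, 77.9, 119 and 132 TPM at day 14, 153, 102, 159 and 147 TPM with vehicle and 139, 151, 156 and 164 TPM with nanoparticles. All 4 nanoparticle libraries lay above all 4 day 14 libraries, and vehicle mouse 2 alone kept the vehicle group from doing so. The log2 difference was 0.32 with vehicle (95% interval -0.02 to 0.67, adjusted p = 0.21) and 0.44 with nanoparticles (SE 0.159, 95% interval 0.10 to 0.79, adjusted p = 0.0796). Neither passed the threshold. The nanoparticle difference did so without vehicle mouse 2 (0.45, adjusted p = 0.0353), a library of neither group compared, and in DESeq2 (0.45, adjusted p = 0.0280). The low library at day 14, mouse 2, also had the lowest level of long against short transcripts. There the median deviation from the group mean of genes of at least 10 kb, Ptprb among them, minus that of genes under 2 kb was -0.31 on the log2 scale. The other 11 libraries lay between -0.05 and 0.17. Without that library the nanoparticle difference of Ptprb was 0.31 (adjusted p = 0.124), and the part of transcript length in it was not tested.

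Aplnr, at chromosome 2, 85136225 to 85139923, encodes the apelin receptor. It was the most variable of the 5 general capillary and tip-like genes at day 14, with 13.2, 43.9, 23.9 and 35.1 TPM. The vehicle mice had 40.7, 48.5, 39.5 and 39.0 TPM and the nanoparticle mice 34.3, 52.0, 22.5 and 41.7 TPM. Day 14 mouse 2 exceeded 3 of the 4 vehicle mice, and nanoparticle mouse 3 lay below 3 of the 4 day 14 mice. The log2 difference was 0.53 with vehicle (95% interval -0.23 to 1.29, adjusted p = 0.347) and 0.38 with nanoparticles (95% interval -0.39 to 1.14, adjusted p = 0.5). With intervals this wide a difference of the size of that of Esm1 could not be told from none. Without day 14 mouse 1 the differences were 0.29 and 0.13.

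Among the aerocyte genes, Car4, at chromosome 11, 84957786 to 84966044, encodes carbonic anhydrase 4, which sits on the capillary surface and speeds the exchange of carbon dioxide. Its levels were 138, 148, 129 and 136 TPM at day 14, 143, 108, 134 and 136 TPM with vehicle and 127, 147, 114 and 152 TPM with nanoparticles. The ranges overlapped in every pair of groups. The log2 difference was -0.10 with vehicle (95% interval -0.32 to 0.12, adjusted p = 0.556) and -0.06 with nanoparticles (95% interval -0.28 to 0.16, adjusted p = 0.723). The upper bounds lie well below the rise of Esm1.

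Ednrb, at chromosome 14, 103814625 to 103844402, encodes the endothelin B receptor, which clears endothelin from the circulation of the lung. Its levels were 28.1, 20.9, 25.8 and 34.2 TPM at day 14, 40.7, 24.9, 40.5 and 39.9 TPM with vehicle and 36.1, 44.7, 24.6 and 49.8 TPM with nanoparticles. In each day 21 group 3 mice lay above all 4 day 14 mice, and 1 mouse, vehicle mouse 2 or nanoparticle mouse 3, lay inside the day 14 range. The log2 difference was 0.44 with vehicle (95% interval -0.05 to 0.93, adjusted p = 0.229). With nanoparticles it was 0.51 (95% interval 0.02 to 1.00), with an unadjusted p of 0.0435 in edgeR's test and an adjusted p of 0.148. Without nanoparticle mouse 3 the nanoparticle difference was 0.68 and passed the threshold (adjusted p = 0.0342).

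Apln, on chromosome X from 48025146 to 48034853, encodes apelin. Its levels were 16.4, 18.7, 19.7 and 26.3 TPM at day 14, 29.3, 19.4, 28.4 and 31.0 TPM with vehicle and 27.9, 31.2, 9.10 and 30.5 TPM with nanoparticles. The pattern was that of Ednrb: the same mice, vehicle mouse 2 and nanoparticle mouse 3, were lowest in their groups, and the other 3 of each group exceeded every day 14 mouse. The log2 difference was 0.42 with vehicle (95% interval -0.32 to 1.15, adjusted p = 0.452) and 0.28 with nanoparticles (95% interval -0.46 to 1.02, adjusted p = 0.611). Without nanoparticle mouse 3 the latter was 0.57 and passed the threshold (adjusted p = 0.0422).

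The same low libraries also had the least RNA of heart muscle genes. The summed CPM of 8 heart muscle genes was 363, 196, 401 and 294 in the vehicle group and 294, 271, 189 and 406 in the nanoparticle group, against 222, 244, 248 and 260 at day 14. Of the 8, edgeR called 0 from day 14 in either comparison, beside 10.3% and 14.7% of all genes. Under an unadjusted p of 0.05 in that test there was 1 in each, and DESeq2 called 1 in each, Ryr2. Vehicle mouse 2 and nanoparticle mouse 3 were again the lowest of their groups. Nanoparticle mouse 3 also had the highest summed CPM of 10 leukocyte genes, 986, where the other 11 libraries ranged from 456 to 641. The part of these tissues and cells in the levels of Ednrb and Apln was not tested.

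The last 2 aerocyte genes overlapped between all groups. Fibin, at chromosome 2, 110360917 to 110363183, encodes a secreted protein first known from fin bud development. It had 41.8, 23.0, 31.1 and 35.4 TPM at day 14, 33.7, 21.5, 34.1 and 31.0 TPM with vehicle and 29.6, 29.4, 25.2 and 36.2 TPM with nanoparticles. Its log2 difference was -0.14 in both comparisons (adjusted p = 0.681 and 0.67), with 95% intervals of -0.55 to 0.28 and -0.56 to 0.28. Tbx2, at chromosome 11, 85832551 to 85841948, encodes a T-box transcriptional repressor and lies 0.867 Mb from Car4 on the same chromosome. It had 90.0, 123, 96.7 and 107 TPM at day 14, 126, 110, 118 and 107 TPM with vehicle and 104, 113, 110 and 124 TPM with nanoparticles. Its log2 difference was 0.13 with vehicle (95% interval -0.06 to 0.33, adjusted p = 0.365) and 0.11 with nanoparticles (95% interval -0.09 to 0.30, adjusted p = 0.464). Day 14 mouse 2 exceeded 3 of the 4 mice in each day 21 group, and without it the vehicle difference of Tbx2 was 0.25 and passed the threshold (adjusted p = 0.0476).

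The particle comparison set the nanoparticle group against the vehicle group at day 21. In edgeR's quasi-likelihood test 0 of 10 capillary genes and 0% of all genes were called, with 4.25% of all genes (762) and 0 of the 10 under an unadjusted p of 0.05. DESeq2 called 19 genes and limma on TPM called 1, none of them among the 10. The groups overlapped for all 10 genes, where 3.55% of all genes did not overlap. The log2 differences ran from -0.15 (Aplnr) to 0.12 (Ptprb), with adjusted p of at least 0.999. The precision differed between genes. For Car4 the 95% interval was -0.18 to 0.26 and for Gpihbp1 -0.11 to 0.22. For Esm1 it was -0.59 to 0.39, for Apln -0.87 to 0.60 and for Aplnr -0.91 to 0.60, so moderate effects of the particles on these last 3 were not detectable.

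Ratios within a library compare the cell types without reference to the total of endothelial RNA. The log2 ratio of Car4 to Gpihbp1, an aerocyte gene over a general capillary gene, was 0.05 ± 0.051 (SD, n = 4) at day 14, -0.06 ± 0.079 with vehicle and -0.08 ± 0.23 with nanoparticles on the CPM scale. No difference passed the test. They were -0.11 for vehicle from day 14 (exact two-sided permutation p = 0.0857, adjusted over 6 tests 0.514), -0.13 for nanoparticles from day 14 (exact permutation p = 0.371, adjusted 0.643) and -0.02 between the day 21 groups (exact permutation p = 0.914, adjusted 0.943). The log2 ratio of Apln to Aplnr, ligand over receptor, was -0.66 ± 0.63, -0.90 ± 0.45 and -0.95 ± 0.44 (SD, n = 4) in the 3 groups. Its differences were -0.25 (exact permutation p = 0.429, adjusted 0.643), -0.29 (exact permutation p = 0.4, adjusted 0.643) and -0.05 (exact permutation p = 0.943, adjusted 0.943). The smallest p that 4 mice against 4 allow is 0.0286, which a single ratio adjusted over 6 tests cannot bring under the threshold, and no ratio reached it.

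The 18 genes shared by all endothelium were also used as a reference, as a description with no test. Their mean log2 CPM was 7.53 ± 0.076 at day 14, 7.63 ± 0.12 with vehicle and 7.68 ± 0.082 with nanoparticles (SD, n = 4). Relative to that mean, Esm1 was still higher than at day 14, by 0.92 with vehicle and 0.76 with nanoparticles on the log2 scale, with no overlap between groups. Car4 differed from day 14 by -0.21 with vehicle, with no overlap, and by -0.22 with nanoparticles, with overlap. Gpihbp1 lay at -0.10 and -0.09. The relative scale thus placed the day 21 groups lower for Car4, whose plain differences were -0.11 and -0.07. The other aerocyte genes did not share 1 direction. Fibin lay at -0.23 and -0.27, Ednrb at 0.33 and 0.33, Apln at 0.30 and -0.01 and Tbx2 at 0.04 and -0.04. Aplnr lay at 0.55 and 0.28, Ptprb at 0.23 and 0.31 and Plvap at 0.16 and 0.09.

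**Figure D3:**
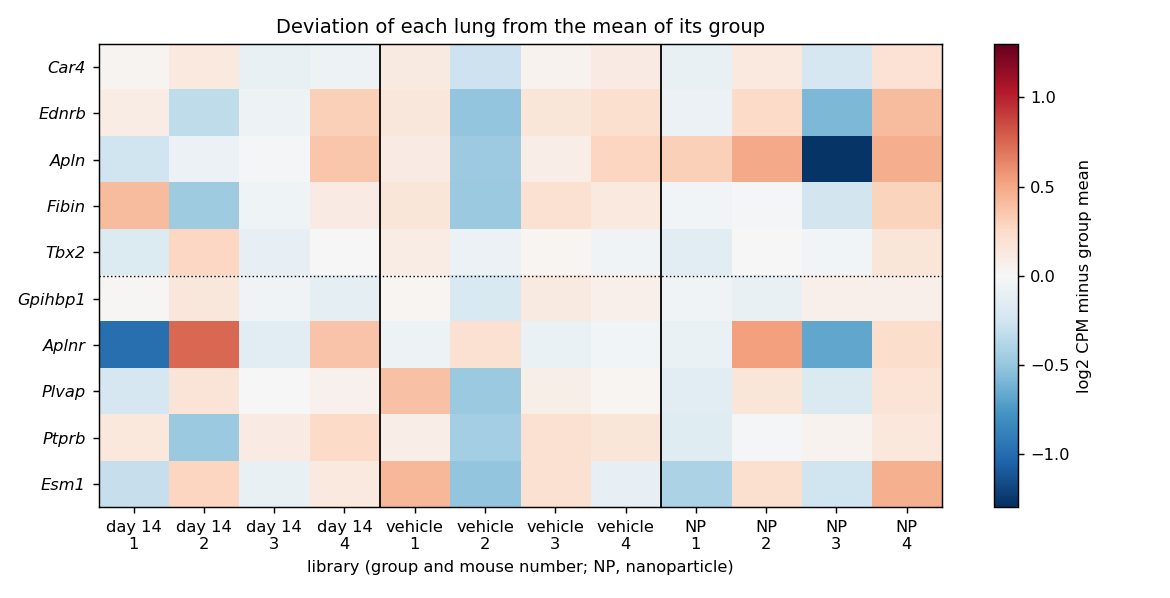
Deviation of each gene in each library from its group mean, in log2 CPM, as a heat map of 10 genes by 12 libraries. Vehicle mouse 2 is low in every row but that of Aplnr, and nanoparticle mouse 3 is low for Apln, Ednrb and Aplnr.

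The genes varied between mice of a group, and the same libraries recurred. On the TPM scale vehicle mouse 2 was the lowest of its group for 8 of the 10 genes and the highest for Aplnr. Nanoparticle mouse 3 was the lowest for 6 of 10 and the highest for Gpihbp1, whereas nanoparticle mouse 4 was the highest for 7. Day 14 mouse 1 was the lowest for 5, and day 14 mouse 2 the highest for 6 but the lowest for Ednrb, Fibin and Ptprb. Vehicle mouse 2 also had the lowest summed CPM of the 18 shared endothelial genes in its group, 4620 against 5631 to 5816.

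After removal of group means, the strongest correlation among the 45 pairs over the 12 libraries was that of Plvap and Esm1, with Pearson's r = 0.93 and Spearman's rho = 0.97, and r = 0.93 without the 2 libraries farthest from the median. Ednrb and Apln had r = 0.84 and 0.62 without those 2 libraries, and Fibin and Ptprb had 0.84 and 0.49. Aplnr and Ptprb had the most negative value, -0.42. These are descriptions over 12 whole-lung libraries, in which all genes of a library share its tissue sample and its depth. By cell type, the median r was 0.54 over the 10 pairs of aerocyte genes, 0.37 over the 10 pairs of general capillary and tip-like genes and 0.51 over the 25 pairs between the types.

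**Figure D4:**
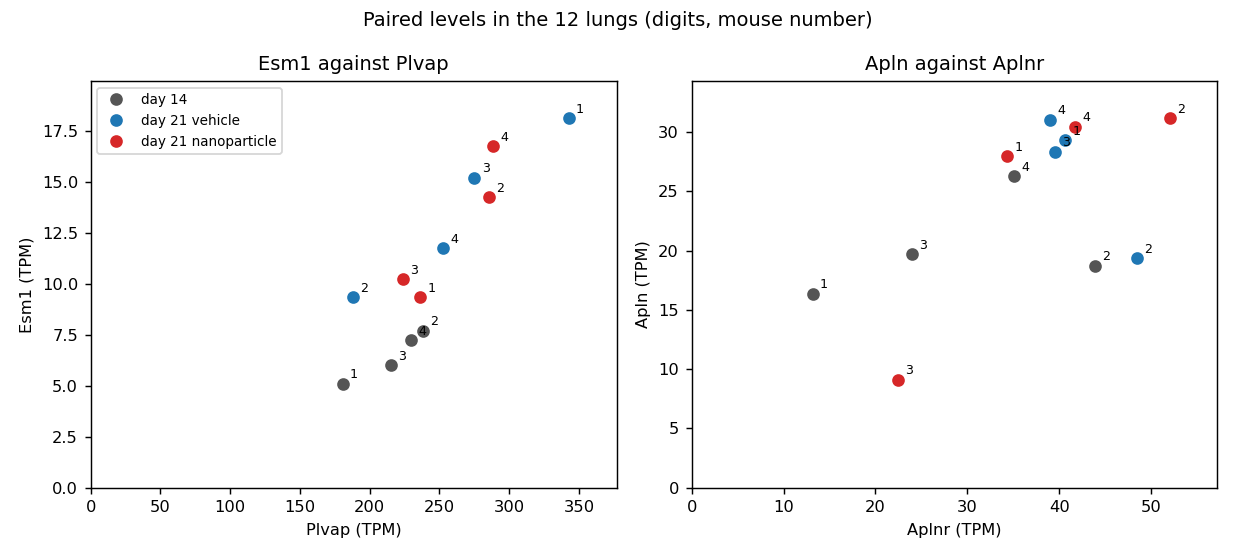
Level of Esm1 against Plvap and of Apln against Aplnr, in TPM, 1 point per library, coloured by group and numbered by mouse. Within groups Plvap and Esm1 (r = 0.93) lie along a line, and Apln and its receptor Aplnr (r = 0.54) scatter more widely, with vehicle mouse 2 and nanoparticle mouse 3 far below the rest of their groups in Apln.

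The genes whose deviations were most like those of each member were sought among 11057 well-expressed genes over the same 12 libraries. The highest r of so many candidates over 12 libraries is high for unrelated genes too. The likeness is therefore a description and was not tested. For Esm1 the most alike were Plvap, Ankrd63 (r = 0.92) and Clec14a (r = 0.92), the last an endothelial C-type lectin. For Ptprb they were Bmpr2, the receptor of bone morphogenetic proteins mutated in pulmonary hypertension (r = 0.98), Ppm1a and Tbc1d2b. Ptprb deviated by -0.49 in day 14 mouse 2, the library with the lowest level of long against short transcripts. The part of transcript length in this likeness was not tested. Ednrb was most like Synm, an intermediate filament protein of muscle (r = 0.99), and Edil3 (r = 0.98). Apln was most like Ank2 (r = 0.98), Tmem8b and Colq, the collagen tail of muscle acetylcholinesterase (r = 0.97). Aplnr was most like Dact1 (r = 0.97) and Pcdh17 (r = 0.96), and Car4 like Tst (r = 0.93) and Aard (r = 0.92). Gpihbp1 was most like Gabarapl1 (r = 0.95), Tbx2 like Rnf167 (r = 0.97) and Fibin like Chst15 (r = 0.95). With group means left in, r for these pairs was 0.86, 0.96 and 0.95 for Esm1 with Plvap, Ankrd63 and Clec14a, 0.99 for Ptprb with Bmpr2, 0.98 for Ednrb with Synm and 0.97 with Edil3, and 0.91 for Apln with Ank2 and 0.88 with Colq. It was 0.98 for Aplnr with Dact1 and 0.92 with Pcdh17, 0.88 for Car4 with Tst and 0.89 with Aard, 0.82 for Gpihbp1 with Gabarapl1, 0.92 for Tbx2 with Rnf167 and 0.67 for Fibin with Chst15.

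Of 17 partners of the 10 genes (ligands, receptors and enzymes of the same pathways), 16 were tested. They were chosen with earlier results of these data known, so their counts are descriptions. With vehicle 4 rose and 0 fell, and with nanoparticles 7 rose and 0 fell, beside 3.79% and 6.16% of all genes that rose. The median log2 difference was 0.24 and 0.34. The angiopoietins, ligands of the Tie2 receptor on which Ptprb acts, were among those that rose. Angpt1, the activating ligand, rose by 0.35 on the log2 scale with vehicle (SE 0.072, adjusted p = 0.00938) and by 0.42 with nanoparticles (SE 0.072, adjusted p = 0.00262). Angpt2, the ligand released by tip cells, rose by 0.67 (SE 0.157, adjusted p = 0.02) and 0.62 (SE 0.158, adjusted p = 0.0225), from 7.10 ± 1.35 TPM to 11.3 ± 1.08 and 10.9 ± 2.26 TPM (SD, n = 4). The Angpt2 call was lost in the vehicle comparison without day 14 mouse 3 or vehicle mouse 1, and in the nanoparticle comparison without day 14 mouse 1 or 3 or nanoparticle mouse 1, 2 or 4, with adjusted p up to 0.0631 and 0.0671. Tek, which encodes Tie2, rose by 0.39 with nanoparticles (SE 0.096, adjusted p = 0.0158), a call lost without nanoparticle mouse 4 (adjusted p = 0.0549). With vehicle its difference was 0.27 (adjusted p = 0.0826).

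Cd36, a fatty acid receptor of capillary endothelium and macrophages, rose by 0.31 with vehicle (SE 0.066, adjusted p = 0.0112) and by 0.42 with nanoparticles (SE 0.066, adjusted p = 0.00179). Lpl, whose product Gpihbp1 carries, had differences of -0.24 (adjusted p = 0.322) and -0.13 (adjusted p = 0.592). Vegfa, the growth factor that induces Esm1 in tip cells, rose by 0.34 with vehicle (SE 0.081, adjusted p = 0.0188), a call lost without vehicle mouse 1 (adjusted p = 0.0611). With nanoparticles it rose by 0.33 (SE 0.081, adjusted p = 0.0179), a call lost without nanoparticle mouse 4 (adjusted p = 0.0616). Its receptor gene Kdr had differences of 0.38 (adjusted p = 0.119) and 0.41 (adjusted p = 0.0828). Itgal, a leukocyte integrin chain to which endocan can bind, rose by 0.64 with nanoparticles (SE 0.1, adjusted p = 0.00175), and its vehicle difference was 0.11 (adjusted p = 0.519). The summed CPM of 10 leukocyte genes was 456 to 528 at day 14, 463 to 504 with vehicle and 538 to 986 with nanoparticles. Of the 10, 2 rose and 0 fell with nanoparticles in edgeR's test, where 6.16% of all genes rose and 8.56% fell. With vehicle 0 rose and 1 fell, where 3.79% of all genes rose and 6.51% fell. The gene that fell was the macrophage gene Cd68, by 0.61 (adjusted p = 0.013). Its nanoparticle difference was -0.39 (adjusted p = 0.0613 in edgeR's test), and DESeq2 called it. One of the 10, S100a8, was spread widely between the nanoparticle mice (668.5 ± 1055.1 TPM, SD, n = 4). The part of the leukocyte genes in the rise of Itgal was not tested.

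**Figure D5:**
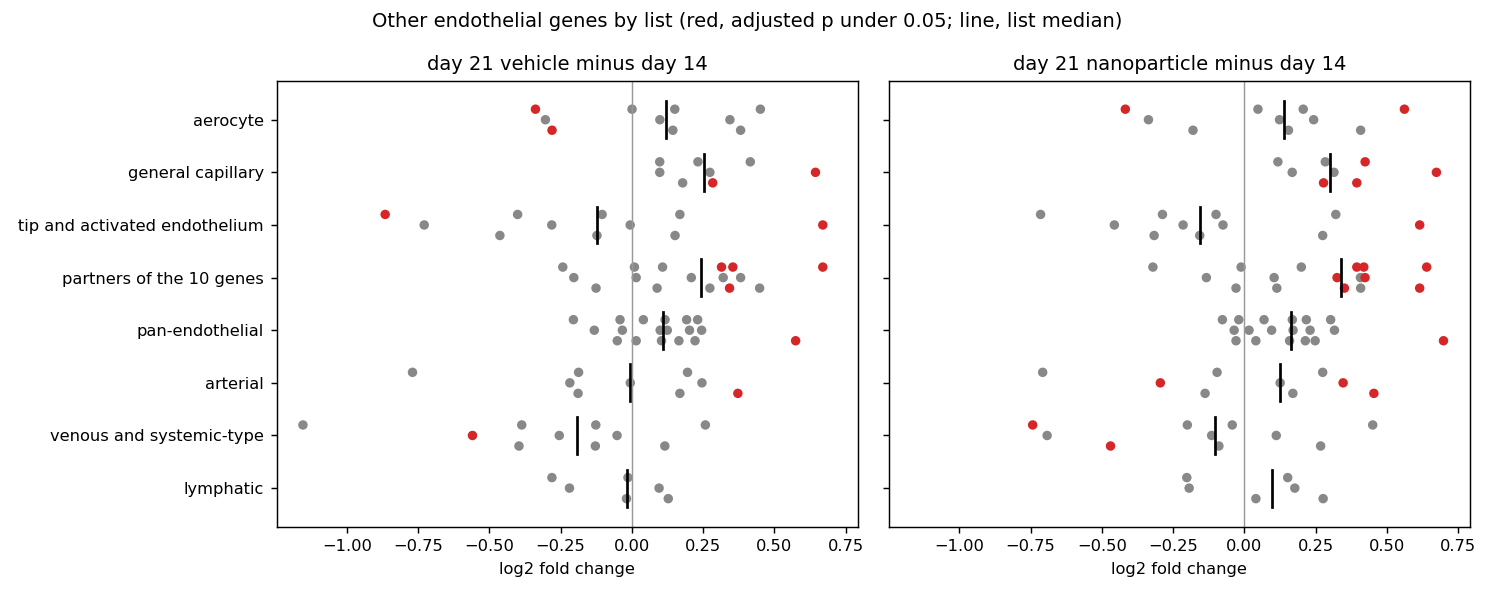
Log2 differences from day 14 for the genes of 8 other endothelial lists, 1 point per gene, for the vehicle and the nanoparticle group. Red points are genes called by edgeR and black lines are list medians. The called partner genes all lie above 0, and the shared endothelial genes have medians of 0.11 with vehicle and 0.16 with nanoparticles.

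Further genes of the same cell types were read from separate lists, also chosen with earlier results of these data known. Of 8 other general capillary genes, 2 rose with vehicle and 4 with nanoparticles in edgeR's test, where 3.79% and 6.16% of all genes rose, and 0 fell in either comparison. Glp1r, the receptor of glucagon-like peptide 1, rose by 0.64 with vehicle (SE 0.144, adjusted p = 0.0165) and by 0.67 with nanoparticles (SE 0.145, adjusted p = 0.00985). The Glp1r call with vehicle was lost without day 14 mouse 3 or vehicle mouse 1, with adjusted p up to 0.0591. Kit, the stem cell factor receptor, rose by 0.28 in both comparisons (SE 0.076 in each, adjusted p = 0.0311 and 0.0267), and its calls were lost without day 14 mouse 1 or 3 and without several day 21 mice (vehicle mouse 1, 3 or 4, and nanoparticle mouse 1, 2 or 4), with adjusted p up to 0.103 and 0.0876. Tek is on this list too. Hilpda, a lipid droplet protein, rose by 0.42 with nanoparticles (adjusted p = 0.0471), a call lost without any of 8 of the 12 mice (day 14 mouse 1, 3 or 4, vehicle mouse 3 or 4, nanoparticle mouse 1, 2 or 4), with adjusted p up to 0.126. With vehicle the Hilpda difference was also 0.42 (adjusted p = 0.061 in edgeR's test), and DESeq2 called it.

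Of 10 other aerocyte genes, 0 rose and 2 fell with vehicle, and 1 rose and 1 fell with nanoparticles, where 6.51% and 8.56% of all genes fell. Igfbp7, an insulin-like growth factor binding protein made by endothelium and by other lung cells, fell by 0.28 with vehicle (SE 0.075, adjusted p = 0.0311) and by 0.42 with nanoparticles (SE 0.075, adjusted p = 0.00355). The vehicle call was lost without day 14 mouse 1, 2 or 3 or vehicle mouse 1 or 3, with adjusted p up to 0.107. Sirpa, an inhibitory receptor that macrophages also carry, fell by 0.34 with vehicle (adjusted p = 0.0381), and this call was lost without any 1 mouse of either group compared or without nanoparticle mouse 1, with adjusted p up to 0.122. With nanoparticles the Sirpa difference was -0.18 (adjusted p = 0.218). Cyp4b1, a cytochrome P450 also found in airway epithelium, rose by 0.56 with nanoparticles (SE 0.139, adjusted p = 0.019), a call lost without day 14 mouse 2 or 3 or nanoparticle mouse 4, with adjusted p up to 0.0605. With vehicle the Cyp4b1 difference was 0.45 (adjusted p = 0.0558 in edgeR's test), and DESeq2 called it. The median log2 difference of this list was 0.12 and 0.14, beside 0.25 and 0.30 for the other general capillary genes.

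Of 11 other genes of tip-like and activated endothelium, 1 rose and 1 fell with vehicle, and 1 rose and 0 fell with nanoparticles. Among all genes 3.79% rose and 6.51% fell with vehicle, and 6.16% rose and 8.56% fell with nanoparticles. The gene that rose was Angpt2 in both comparisons. Lrg1, a secreted glycoprotein that promotes vessel growth and is also made in the inflamed lung, fell by 0.87 with vehicle (SE 0.246, adjusted p = 0.0477), and the call was lost without any 1 of 9 mice (each day 14 mouse except mouse 4, each vehicle mouse, and nanoparticle mouse 1 or 2), with adjusted p up to 0.13. With nanoparticles the Lrg1 difference was -0.71 (adjusted p = 0.0746). The remaining tip-cell genes, Dll4, Cxcr4 and Pgf among them, passed in neither comparison, with log2 differences with vehicle of 0.17 (adjusted p = 0.51), 0.15 (adjusted p = 0.509) and -0.40 (adjusted p = 0.145). The median of the list was -0.12 and -0.16, so the rise of Esm1 and Angpt2 was not shared by the list as a whole. In the nanoparticle against vehicle comparison edgeR called 0 genes of the partner, general capillary, aerocyte and tip-like lists, with 1, Itgal, under an unadjusted p of 0.05. DESeq2 called Itgal there (log2 difference 0.53, adjusted p = 0.00331), and limma on TPM called 0.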

How the data were processed

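Whole-lung polyA RNA from 12 mice had been sequenced, and the tools MultiQC 1.20, RSEM 1.3.3, STAR 2.7.8a, FastQC 0.11.8 and cutadapt 4.8 and the build GRCm38 are named in the submitters' processing notes. Neither strand setting nor annotation release is given in the sources used here. Expected counts, all whole numbers, and TPM values were deposited by the authors as tables of genes by libraries, per the file headers. FPKM values were not used. Column names follow the labels' library names, and titles name separate mice.

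Fold changes came from 1 edgeR 4.0.16 fit over the 12 libraries (R 4.3.3, TMM scaling, robust quasi-likelihood, counts of at least 10 and 15 in total, 17909 genes), with Benjamini-Hochberg adjustment over all genes tested and a threshold of 0.05. Levels are TPM, which are per length, and ratios and deviations are log2 CPM with a prior count of 2. A floor of 3 counts was 0.0719 to 0.125 CPM, for counting error only. On simulated counts for the vehicle comparison (17741 genes) the fit recovered 65 of 100 genes changed 1.5-fold and 83 of 100 changed 2-fold, with 6 false calls. Alternatives used DESeq2 1.42.0, limma 3.58.1 and left-out libraries. The 10 genes and the other lists were chosen with earlier results of these data known. All 10 were named, and from each other list up to 4 called genes with the largest log2 difference in each comparison (with none called, up to 2 by smallest p), while likeness was Pearson's r of deviations from group means among genes with a mean log2 CPM of at least 3, predicted genes left out. Named genes outside this rule (Pecam1, Lpl, Kdr, Dll4, Cxcr4, Pgf, Ryr2 and Vegfa with nanoparticles, and differences that missed the threshold) were chosen after their values were seen. Coordinates are from GENCODE M21 (GRCm38) and upstream sequences from RefSeq (GRCm38.p6), without the part after the RefSeq start. By the GENCODE coordinates the Ednrb sequence lies inside the gene and the Fibin sequence partly inside it.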

Additional observations from a re-analysis of the deposited data

Results flagged for a closer look

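In 36 sets of 4 mice (10 genes and 2 ratios in 3 groups), 4 had a mouse set apart from the other 3 by more than Dixon's 95% critical value. Chance gives about 1 in 20. Ednrb was 24.95 TPM in vehicle mouse 2, against 39.9 to 40.7 TPM in the other 3. Apln was 9.10 TPM in nanoparticle mouse 3, against 27.9 to 31.2 TPM. Gpihbp1 was 259.43 TPM in day 14 mouse 2, against 225 to 228 TPM. The log2 ratio of Apln to Aplnr was -1.58 in vehicle mouse 2, in which Apln was the lowest and Aplnr the highest of the group.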

How the results depend on the processing

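Of 10 genes, 1 was called from day 14 in each comparison, and the count was 0 with vehicle and 0 with nanoparticles without the low-count filter, the same with limma on unfiltered log2(TPM + 0.1), and 2 with nanoparticles in DESeq2, where Ptprb joined Esm1. Leaving out 1 mouse gave 0 to 2 with vehicle and 0 to 3 with nanoparticles, and 0 in the nanoparticle against vehicle comparison. All genes called were 1845 and 2636 in edgeR and 2618 and 3317 in DESeq2, and limma on TPM called 912 and 1460 with a pseudocount of 0.1, 945 and 1452 with 1, and 441 and 866 unfiltered. A fit of the 2 groups alone called 1672 with nanoparticles. Leaving out 1 mouse gave 719 to 2162 and 1363 to 2934. Nanoparticle against vehicle, edgeR called 0, DESeq2 19, and limma 1 (pseudocount 0.1) and 1 (unfiltered). Where not named above, the cause was not tested. Mouse numbers do not mark shared animals, and same-numbered mice did not deviate together (r from -0.07 to 0.15, 2 of 12 pairs over 0.1, 4 of 12 libraries closest to their own number). With the replicate block 1673, 2419 and 0 genes and 1, 2 and 0 of the 10 were called, with Ptprb added (adjusted p = 0.0183). With 4 mice a group no single ratio could pass after adjustment over 6 tests, so the alternatives say nothing about the stability of the ratios. The small differences of Fibin, Gpihbp1 and Car4 changed sign when single mice were left out (Fibin with vehicle from -0.26 to 0.02).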

Other observations

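Larger vessels were read from lists of 9 arterial, 10 venous and systemic-type and 7 lymphatic genes. EdgeR called 1 arterial gene with vehicle and 3 with nanoparticles, and 1 and 2 venous and systemic-type genes. Among all genes 10.3% and 14.7% were called. Bmx, an arterial kinase, was called by edgeR in both comparisons with day 14: it rose by 0.37 on the log2 scale with vehicle (adjusted p = 0.0449) and by 0.45 with nanoparticles (adjusted p = 0.0155). The vehicle call of Bmx was lost without any day 14 mouse, vehicle mouse 1, 3 or 4 or nanoparticle mouse 2 or 4, with adjusted p up to 0.124, and the nanoparticle call was kept without each mouse in turn. Efnb2, an arterial ephrin, rose by 0.35 with nanoparticles (adjusted p = 0.0404), and Fbln5, an elastic fibre protein of arteries that fibroblasts also make, fell by 0.29 (adjusted p = 0.024). Both calls were lost without day 14 mouse 1 or 3 or nanoparticle mouse 4, that of Efnb2 also without day 14 mouse 2, vehicle mouse 4 or nanoparticle mouse 2, and that of Fbln5 also without nanoparticle mouse 3, with adjusted p up to 0.122 and 0.0831. With vehicle the difference was 0.25 for Efnb2 (adjusted p = 0.145) and -0.22 for Fbln5 (adjusted p = 0.0889).

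Col15a1, a collagen of the basement membrane of systemic-type vessels and of some fibroblasts, fell by 0.56 with vehicle (SE 0.133, adjusted p = 0.0207) and by 0.74 with nanoparticles (SE 0.134, adjusted p = 0.00406), from 14.3 TPM at day 14 to 9.22 and 7.98 TPM. The vehicle call was lost without day 14 mouse 2 or 3 or vehicle mouse 3, with adjusted p up to 0.0689. Vwa1, a matrix protein, fell by 0.47 with nanoparticles (adjusted p = 0.0288), a call lost without day 14 mouse 2 or 3 or nanoparticle mouse 1, 2 or 4, with adjusted p up to 0.0915. With vehicle the Vwa1 difference was -0.40 (adjusted p = 0.0643 in edgeR's test), and DESeq2 called it. Of the lymphatic genes 6 were tested, and edgeR called 0 in either comparison with day 14, beside 10.3% and 14.7% of all genes. There were also 0 under an unadjusted p of 0.05 in that test and 0 by DESeq2 or limma. Prox1, the defining lymphatic transcription factor, had differences of -0.28 with vehicle (adjusted p = 0.366) and -0.19 with nanoparticles (adjusted p = 0.534), the latter -0.47 and past the threshold without nanoparticle mouse 3 (adjusted p = 0.0191). Clec14a was the 1 gene of the 18 shared by all endothelium that edgeR called in each comparison, where 10.3% and 14.7% of all genes were called. It rose by 0.57 with vehicle (adjusted p = 0.0123) and 0.70 with nanoparticles (adjusted p = 0.0034). Over the same week 8 of 8 genes of dividing cells were called lower in each comparison, where 6.51% and 8.56% of all genes were. Their median log2 difference was -1.11 with vehicle and -1.36 with nanoparticles.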
